A study of Danio rerio with 18 samples.

Results

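Digestive organs of zebrafish larvae taken 4 h after a low-fat meal were compared with those taken 1 h after the same meal, gene by gene. The question was which transcripts still differed from their early post-meal level once digestion had gone on for some hours. Both groups were wild-type larvae of strain AB at 6.5 days post fertilization that had been offered 10% egg white, a food that is nearly all protein and water. Each group had 3 samples, and each sample pooled the dissected intestine, liver and pancreas of 10 larvae, so the age, strain and food were shared, and the labels set the groups apart by the time since the meal. Per the labels, the 3 samples of a group came from different pairwise crosses. Unfed larvae of the low-fat cohort (3 pools) were the authors' baseline for both times. A second cohort, with its own unfed larvae, received a 5% egg yolk emulsion as a high-fat meal and was sampled at the same times. The deposited data are a table of the authors' own comparisons, with 1 log2 fold change over unfed larvae per transcript and time and 0 columns of single samples. The 4 h minus 1 h difference is the authors' log2 fold change at 4 h minus that at 1 h, in which the unfed larvae cancel. For each gene symbol the most abundant transcript was used, and genes with an average of at least 0 on the log2 CPM scale (read counts scaled to library size) were kept, which gave 12828 of 21227 symbols. The last genes inside that limit were il7r and ppapdc2, with differences of 0.40 and 0.07. The first genes outside it were avpr1b and si:dkeyp-38g8.5, with differences of 0.24 and 0.12.

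After a protein meal, enterocytes of the fish intestine cut peptides at the brush border and take up amino acids and small peptides through sodium- or proton-coupled carriers, and nitrogen that is not used for growth leaves mostly as ammonia through gills and skin. Food also sets off immediate early genes, transcription factors whose messages appear within minutes of a stimulus and decay quickly, and it acts on the clock genes of peripheral organs. The intestinal epithelium carries a standing defence programme, which includes an NADPH oxidase that releases superoxide and cytokines such as interleukin 1 beta. The gene roles given here are largely those known from mammalian orthologs. In tissue of mixed cell types, fewer cells of a type and less RNA per cell cannot be told apart.

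A gene was called when the difference passed an adjusted p of 0.05, from an approximate normal test on standard errors read from the authors' p-values, with Benjamini-Hochberg adjustment over all 12828 genes. By this test 79 genes were higher at 4 h than at 1 h (0.616% of those tested) and 180 were lower (1.4%), together 2.02%. The called genes had a median difference of 1.40 among those higher, which is a 2.64-fold difference, and of -1.48 among those lower, which is 2.78-fold. No gene with a difference under 1.18 in size was called, and 13 genes higher and 26 genes lower differed by more than 2 on the log2 scale. The median over all genes tested was 0.01, with an SD of 0.46 across genes. That median hid a slope with abundance. Genes with an average log2 CPM under 2 had a median difference of 0.04, and the 287 genes at or above 8 had one of -0.15, with 240 of them below 0. A small negative value of an abundant gene therefore lay where most abundant genes lay. The standard error was about 0.358 for genes whose log2 CPM was 5 or more and reached 0.405 at the low end, and it followed the expression level rather than each gene's own spread between pools. With both squared errors added, as if the unfed larvae did not cancel, 13 genes were higher and 26 lower, and of the genes named by rule below 22 kept their call: noxo1b, clec19a, mpx, ypel3, scd, crtac1a, nox1, nfil3-2, gdf6a, rhcga, cyp2r1, fosb, dhrs13a.2, elnb, cmlc1, nr4a1, fos, nr4a3, slc34a2a, vmhcl, myl7 and elovl7b. The call of every other gene named here as higher or lower by rule, including il1b, irg1l, slc6a19a, per1a, fkbp5 and cdkn1a, was lost under that error.

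**Figure D1:**
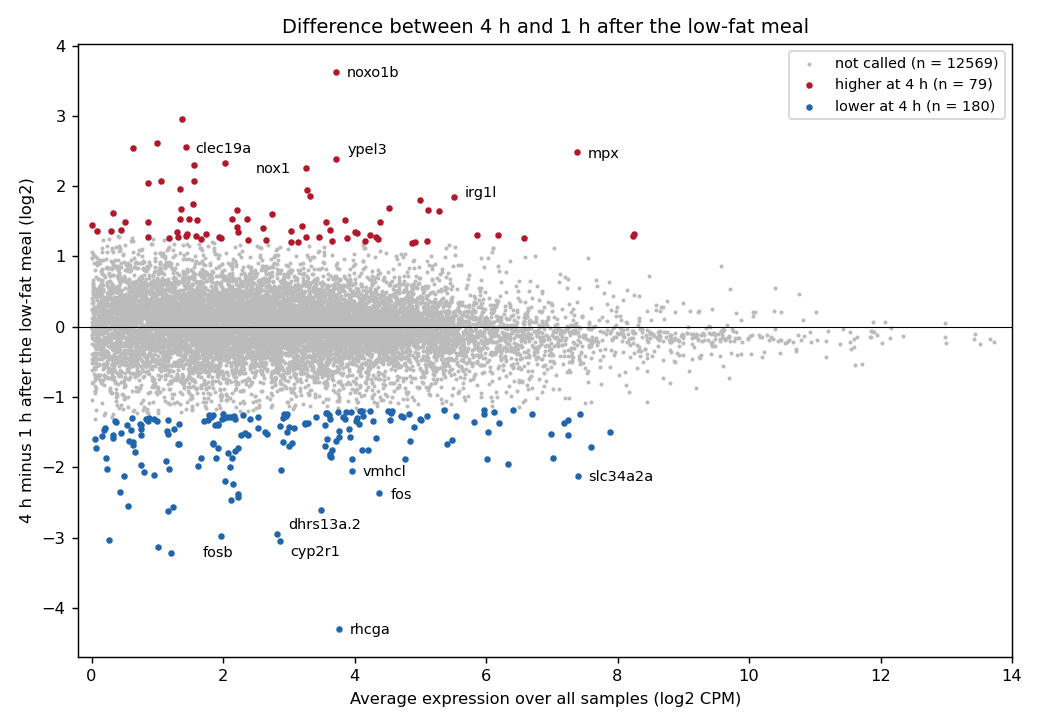
Each point is 1 of 12828 genes, placed by its average expression (log2 CPM, horizontal axis) and by the 4 h minus 1 h difference after the low-fat meal (log2, vertical axis). The 79 genes called higher (red) and the 180 called lower (blue) start at a size of 1.18, noxo1b and rhcga lie at the ends with 3.63 and -4.30, and the band of uncalled genes (grey) dips below 0 at high expression.

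The position of each time relative to unfed larvae gives the called genes a shape. According to the authors' deposited table, 68 of the 79 genes higher at 4 h were marked as below unfed larvae at 1 h (a mark that 1.34% of all genes carried). At 4 h 0 were marked below, which says little, as only 1 of all 12828 genes carried that mark (0.0078%). Of the 180 genes lower at 4 h, 116 were marked in the authors' deposited table as above unfed larvae at 1 h (2.72% of all genes). At 4 h 7 were still marked above (0.437% of all genes). Most called genes thus had their departure from unfed larvae at 1 h. The values over unfed larvae share libraries with the 4 h minus 1 h difference, so these counts describe the called genes and are no separate test. An exception was clec19a, a C-type lectin gene, which was 5.86-fold higher at 4 h than at 1 h (difference 2.55 ± 0.376, standard error). Its fold changes over unfed larvae in the authors' deposited table were 3.29 at 4 h and 0.74 at 1 h, so it was the later time that stood apart.

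Several immediate early genes were among the lower calls. Of 43 measured members of the list, 7 were lower at 4 h and 2 were higher, 20.9% called against 2.02% of all genes. The list median was -0.30 beside 0.01 over all genes. The 32 gene lists were chosen with earlier results of these data known, so these shares describe the lists and are no separate test. The genes fosb and fos code for subunits of the AP-1 transcription factor. Over unfed larvae, fosb stood at -0.62 at 4 h and 2.35 at 1 h in the authors' deposited table. The value at 1 h passed the authors' test and the value at 4 h did not. The 4 h minus 1 h difference of fosb was -2.97 ± 0.371, or 7.86-fold lower. The gene fos gave a difference of -2.37 ± 0.36, 5.16-fold lower, with 0.05 at 4 h and 2.42 at 1 h over unfed larvae in the authors' deposited table. Both measured nr4a genes, which code for orphan nuclear receptors, went the same way: nr4a1 had a difference of -2.38 ± 0.368 and nr4a3 one of -2.23 ± 0.369. The other members called lower, named here after their values were seen, were egr1 (-1.88), a zinc finger factor, cyr61 (-1.69), a secreted matrix protein gene of the Hippo pathway, and dusp2 (-1.38), a phosphatase of MAP kinases. Not every early gene moved. The most abundant members that were not called were btg1, at 0.38 (95% interval -0.32 to 1.08), and zfp36l1b, at -0.24 (-0.94 to 0.46). The pair klf11a and klf11b, Krüppel-like factor genes, ran the opposite way with 1.53 and 1.21, and in the authors' deposited table klf11a stood at -0.87 at 4 h and -2.40 at 1 h over unfed larvae.

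Genes of ammonia transport gave the largest difference of all named genes. The gene rhcga codes for a Rhesus glycoprotein, a membrane channel for ammonia, on chromosome 7 (Zv9, chr7:15168691-15180088). It averaged 13.6 CPM in the authors' deposited table and stood there at -0.89 at 4 h and 3.41 at 1 h over unfed larvae. The difference was -4.30 (95% interval -5.01 to -3.59), which is 19.7-fold lower at 4 h, with an adjusted p of 1.54e-28 by the normal test with Benjamini-Hochberg adjustment. Among the 6 measured Rhesus genes, a family put together after the values were seen, 4 were lower (66.7%, against 1.4% of all genes). They were rhcga, rh50 (-1.88), rhcgl1 (-1.85) and rhcgb (-1.44). Of these, rh50 alone was still marked above unfed larvae at 4 h in the authors' deposited table, with 1.46 at 4 h and 3.33 at 1 h. Rhesus genes are also made in skin ionocytes, whose genes were lower as well, as given further on.

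Carriers of nutrients and ions followed. Of 42 measured amino acid and peptide transporters, 3 were lower and 0 were higher. That is 7.14% called, against 2.02% of all genes, and the median was -0.18. The called members were slc6a19a, the brush border carrier of neutral amino acids, slc38a5a, a carrier of glutamine and related amino acids, and slc15a1a, a proton-coupled peptide transporter. Their differences were -1.50 ± 0.357, -1.26 ± 0.368 and -1.25 ± 0.358. The fold change of slc6a19a over unfed larvae was 0.06 at 4 h and 1.56 at 1 h in the authors' deposited table, and that of slc15a1a was -0.30 at 4 h and 0.94 at 1 h. The more abundant slc15a1b, at -0.55 (95% interval -1.26 to 0.15), and slc38a4, at -0.50 (-1.20 to 0.20), were not called. The intestinal phosphate carrier slc34a2a was lower by a wider margin, -2.12 ± 0.358 or 4.34-fold, with 0.60 at 4 h and 2.72 at 1 h over unfed larvae in the authors' deposited table.

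Over all 246 measured genes whose symbol begins with slc, a family put together after the values were seen, 17 were lower (6.91%, against 1.4% of all genes) and 1 was higher, the choline carrier gene slc44a1a with 1.29. Members of that family named after their values were seen include slc52a3, a riboflavin carrier (-1.75), slc9a3.1, a sodium-proton exchanger (-1.72), slc47a2, an exporter of organic cations (-1.48), slc26a6, an anion exchanger (-1.27), and slc20a1a, a phosphate carrier (-1.25). The range of the family ran from -2.12 to 1.29. The family was put together by symbol and not divided by tissue, so its share does not describe carriers of the gut alone. The members slc12a10.2 and slc4a1b also passed the test of the difference between the meals, which is described at the end. They had -1.72 and -1.46 after the low-fat meal, against 1.17 and 0.90 after the high-fat meal.

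Among 26 measured enterocyte markers, 2 were lower and 0 higher (7.69% called, against 2.02% of all genes). The median was -0.33, and 22 lay below 0. The elongase gene elovl7b, which acts on long fatty acids, was 8.19-fold lower (-3.03 ± 0.398) at a low average of 1.2 CPM, with 0.03 at 4 h and 3.06 at 1 h over unfed larvae in the authors' deposited table. The other called marker was slc6a19a. The abundant apolipoprotein genes apoa4 (0.21, 95% interval -0.49 to 0.91) and apoa1a (-0.14, -0.84 to 0.56) were not called. Of genes that no list held, 3 more picked after their values were seen were lower: npc1l1, the uptake protein for dietary cholesterol (-1.87 ± 0.358), enpp7, the intestinal sphingomyelinase (-1.53 ± 0.358), and asah2, the neutral ceramidase (-1.24 ± 0.358). Over unfed larvae, npc1l1 stood at -0.01 at 4 h and 1.87 at 1 h in the authors' deposited table, and enpp7 at 0.83 at 4 h and 2.36 at 1 h.

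**Figure D2:**
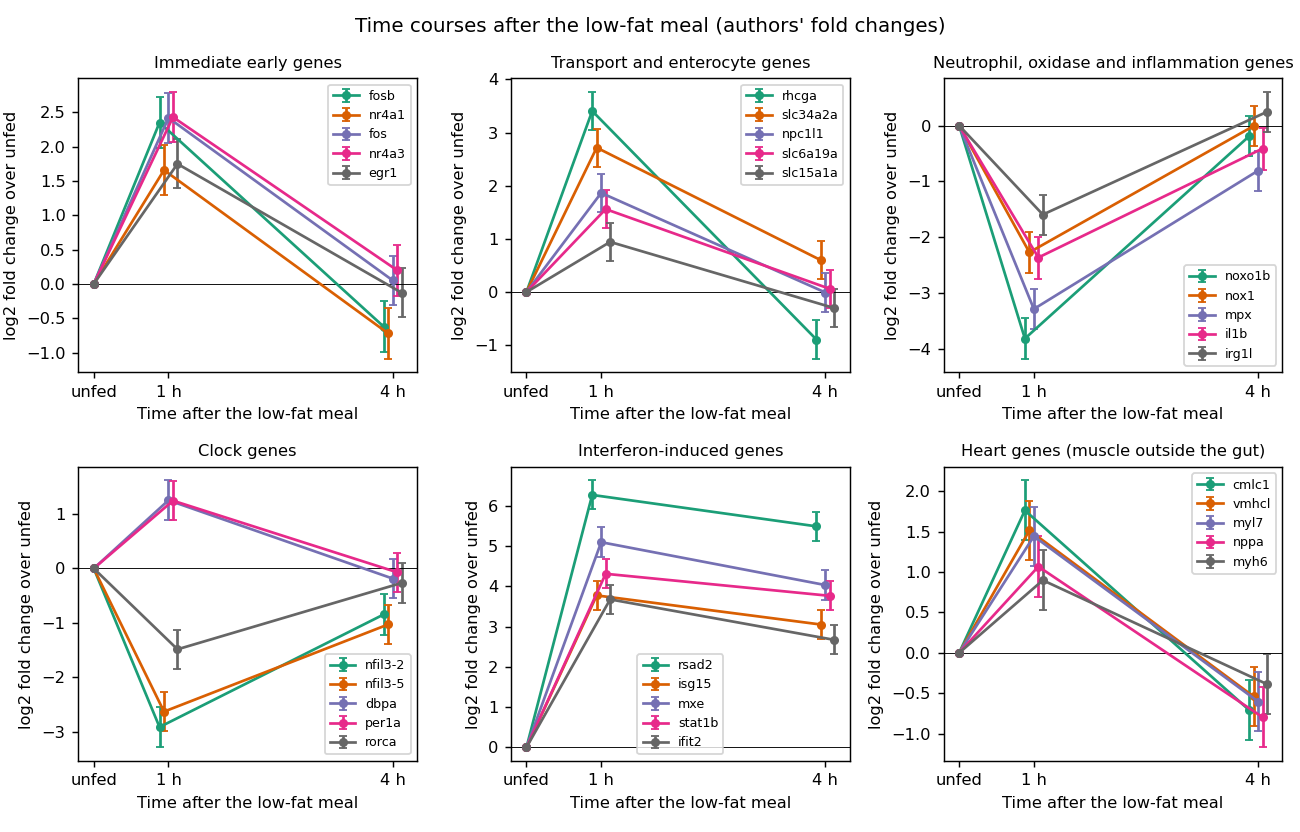
Log2 fold change over unfed larvae (vertical axis, the authors' deposited values) is plotted against the time after the low-fat meal, for 5 genes in each of 6 groups. Unfed larvae are set to 0, and the bars at 1 h and 4 h are 1 standard error of the 4 h minus 1 h difference, drawn on both times. Immediate early, transport and heart genes peak at 1 h (fosb 2.35, rhcga 3.41, cmlc1 1.76) and lie between -0.89 and 0.60 at 4 h, oxidase and inflammation genes dip at 1 h (noxo1b -3.82), and the plotted interferon-induced genes stay high at both times (rsad2 5.49 at 4 h and 6.27 at 1 h).

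The other single genes with the largest lower differences were of mixed kinds. The gene cyp2r1, the enzyme that makes 25-hydroxyvitamin D, had -3.05 ± 0.365, or 8.31-fold. It was one of the genes still above unfed larvae, at 1.98 at 4 h and 5.03 at 1 h in the authors' deposited table. The transcript that stands for cyp2r1 there spans chr7:28581188-28823102 (Zv9), a long span that may hold reads of other genes. The short-chain dehydrogenase gene dhrs13a.2 had -2.95 ± 0.365, the elastin gene elnb -2.57 ± 0.378, the collagen gene col5a3b -2.02 ± 0.379 and fam46c, which codes for a poly(A) polymerase, -1.98 ± 0.374. For dhrs13a.2 the authors' deposited table gave -0.31 at 4 h and 2.64 at 1 h over unfed larvae. The cell cycle list had a median of 0.22. Of its 39 measured genes, 1 was lower and 0 higher (2.56%, near the 2.02% of all genes). That gene was cdkn1a, the p21 inhibitor of cyclin-dependent kinases, at -1.88 ± 0.361 or 3.69-fold lower.

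On the higher side, genes of superoxide production and inflammation led. Of 37 measured inflammation genes, 5 were higher and 0 lower (13.5% called, against 0.616% of all genes called higher). Of the 37, 28 lay above 0, and the median was 0.39. The list, which holds noxo1b and mpx, was chosen with earlier results of these data known, so its share is a description. The gene noxo1b, on chromosome 12 (Zv9, chr12:19471568-19480387), codes for the organiser subunit of NADPH oxidase 1. It averaged 13.1 CPM in the authors' deposited table and stood there at -0.19 at 4 h and -3.82 at 1 h over unfed larvae. It was therefore near its unfed level at the later time. The difference was 3.63 (95% interval 2.92 to 4.34), 12.4-fold higher at 4 h, with an adjusted p of 7.07e-20 by the normal test with Benjamini-Hochberg adjustment. The catalytic subunit gene nox1 went with it, at 2.26 ± 0.363 or 4.81-fold, with -0.01 at 4 h and -2.27 at 1 h over unfed larvae in the authors' deposited table. No other of the 10 measured genes of oxidases and their subunits, a family put together after the values were seen, was called. Among the uncalled were noxo1a at 0.64, cyba, the shared membrane subunit, at 0.70, and ncf1, the organiser of the phagocyte oxidase, at -0.50.

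The gene mpx, which codes for myeloperoxidase of neutrophil granules, was 5.58-fold higher at 4 h (2.48 ± 0.358), with -0.81 at 4 h and -3.29 at 1 h over unfed larvae in the authors' deposited table. Counted in the inflammation list too, it was the one called gene among 24 measured leukocyte markers (4.17%, against 2.02% of all genes). The median of these markers was -0.02, 11 lay above 0, and lyz, the lysozyme gene of myeloid cells, lay at -0.27. Interleukin 1 beta (il1b) was 3.87-fold higher (1.95 ± 0.377). The gene irg1l, related to the itaconate-producing enzyme of activated macrophages, was 3.59-fold higher (1.84 ± 0.359), and in the authors' deposited table it stood at 0.25 at 4 h and -1.60 at 1 h over unfed larvae. The NF-kappa-B subunit gene nfkb2 completed the list with 1.24, and bcl3, a partner of NF-kappa-B proteins, had 1.28; both are named after their values were seen. The abundant acute-phase genes c3a (-0.20, 95% interval -0.90 to 0.50) and lect2l (0.22, -0.49 to 0.92) were not called.

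Other genes with large higher differences were ypel3 (2.39 ± 0.361), scd (2.33 ± 0.37), crtac1a (2.30 ± 0.375), gdf6a (1.95 ± 0.363), rnf183 (1.86 ± 0.363), elf3 (1.81 ± 0.359) and traf4b (1.66 ± 0.369). Stearoyl-CoA desaturase, the product of scd, puts the double bond into saturated fatty acids. The gene gdf6a codes for a ligand of the bone morphogenetic protein family, rnf183 for a ubiquitin ligase, elf3 for an epithelial ETS transcription factor and traf4b for an adaptor of TNF receptors. In the authors' deposited table all 7 were below unfed larvae at 1 h, between -1.68 for traf4b and -2.83 for ypel3, and at 4 h they lay between -0.51 and 0.12. The lists on the response to amino acid starvation and on amino acid breakdown each gave 1 higher gene. These were stc2b (1.26), a stanniocalcin, of 37 (2.7%) and bcat1 (1.19), the cytosolic transaminase of branched-chain amino acids, of 67 (1.49%). Both shares lay near the 2.02% of all genes called. The call of bcat1 was lost with the mean over transcripts and without genes of other tissue.

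Clock genes split into opposite directions. Of 44 measured members, 3 were higher and 2 lower (11.4% called, against 2.02% of all genes), and the median was 0.06. The higher ones were nfil3-2 (2.07 ± 0.374) and nfil3-5 (1.60 ± 0.365), relatives of the repressor NFIL3, and rorca (1.22), an activator at ROR elements that is named after its values were seen. The lower ones were dbpa (-1.44 ± 0.364), an activator at the D-box sites that NFIL3 represses, and per1a (-1.32 ± 0.362), a core repressor of the clock. In the authors' deposited table nfil3-2 stood at -0.85 at 4 h and -2.92 at 1 h over unfed larvae, and dbpa at -0.19 at 4 h and 1.25 at 1 h. The core activators arntl1a and arntl1b had 1.13 and 1.15 and the cryptochrome gene cry2a had 1.13 (95% interval 0.42 to 1.83), none of them called. The clock hour of each collection was not analysed here, so time since the meal and time of day cannot be told apart.

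Glucocorticoid targets had 2 lower and 0 higher of 33 measured genes (6.06%, against 2.02% of all genes), with a median of -0.20. These were per1a again and fkbp5, a co-chaperone gene that glucocorticoids switch on, which was 2.5-fold lower (-1.32 ± 0.358). In the authors' deposited table fkbp5 was marked above unfed larvae at 1 h and not at 4 h. The abundant targets pck1 (-0.43, 95% interval -1.13 to 0.27) and tat (0.86, 0.16 to 1.56) were not called. In the list on gluconeogenesis, glycolysis and fasting, 1 of 60 genes was higher and 1 lower. That is 3.33%, near the 2.02% of all genes, and the median was -0.20. The hepatic binding protein gene igfbp1b, which is known to rise with fasting, was 2.46-fold higher, with -0.55 at 4 h and -1.84 at 1 h over unfed larvae in the authors' deposited table. The gene foxo1b, a FOXO factor that insulin signalling keeps out of the nucleus, was 2.53-fold lower (-1.34 ± 0.396). The glycolytic gene gapdh (-0.31, 95% interval -1.01 to 0.39) was not called.

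Several large groups gave 0 calls by the normal test, where 2.02% of all genes were called. At that share, lists of this size would hold few calls. By the same test 9.63% of all genes had an unadjusted p under 0.05. Of 35 interferon-induced genes 0 were called at a median of -0.31, and 8 had an unadjusted p under 0.05. Of the 35, 11 were marked in the authors' deposited table as above unfed larvae at 4 h (0.437% of all genes). At 1 h 14 were marked above (2.72% of all genes) and 1 below (1.34% of all genes). How many were marked above at both times was not counted. The antiviral gene rsad2 (viperin) had a difference of -0.78 ± 0.359, with 5.49 at 4 h and 6.27 at 1 h over unfed larvae in the authors' deposited table. The dynamin-like mxe (-1.06 ± 0.367) and the ubiquitin-like isg15 (-0.72 ± 0.361), named with rsad2 after their values were seen, also lay below 0 without a call. The abundant members stat1a (0.13, 95% interval -0.57 to 0.83) and stat2 (0.45, -0.26 to 1.15) lay on the other side. Of 37 cytosolic heat shock genes 0 were called (median 0.05, 6 at an unadjusted p under 0.05), with hspa8 at 0.07 and hsp90ab1 at -0.06. Of 39 genes of endoplasmic reticulum chaperones and stress 0 were called (median -0.19, 4 at an unadjusted p under 0.05), with xbp1 at -0.19 and pdia2 at -0.17.

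Lipid lists gave no calls either by the normal test, where few calls would fall in such lists at the 2.02% of all genes. An unadjusted p under 0.05 by that test was reached by 9.63% of all genes. Of 29 cholesterol synthesis genes 0 were called (median -0.11, 2 at an unadjusted p under 0.05), with insig1 at 0.32 and ldlr at -0.71 (95% interval -1.41 to -0.01). Of 48 genes of fatty acid oxidation 0 were called (median -0.13, 3 at an unadjusted p under 0.05), and of 41 genes of lipoprotein assembly and triglyceride synthesis also 0 (median -0.17, 2 at an unadjusted p under 0.05). Apolipoprotein B (apobb) lay at -0.10 (-0.80 to 0.60) and apoa1b at -0.54 (-1.24 to 0.16). Growth and housekeeping lists were alike in this. The 85 ribosome biogenesis factors (median -0.11), 53 translation factors (-0.11), 22 aminoacyl-tRNA synthetases (0.04), 45 proteasome subunits (0.18), 74 respiratory chain subunits (-0.15), 31 genes of polyamine and purine synthesis (-0.18) and 50 lysosome genes (0.06) had 0 calls, and in that order 5, 2, 0, 0, 0, 3 and 4 members had an unadjusted p under 0.05. The interval of a single well expressed gene reached 0.70 on either side of its value, and no difference under 1.18 in size was called, so smaller differences of single genes were not detectable by this test.

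**Figure D3:**
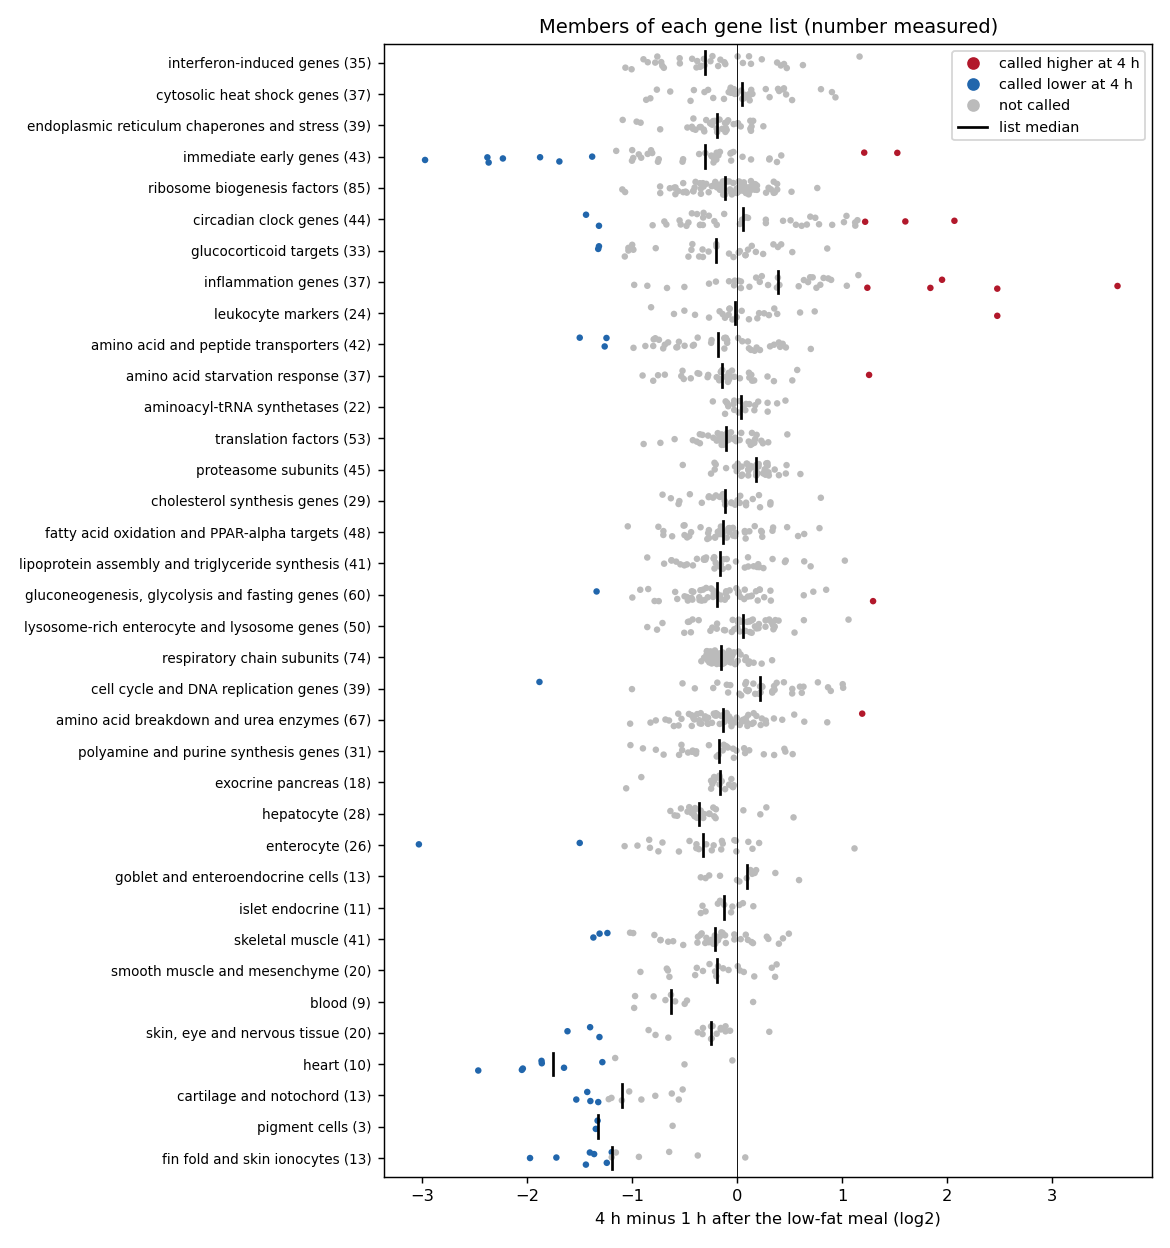
Each row is 1 gene list with its number of measured genes in brackets, each point is a member's 4 h minus 1 h difference after the low-fat meal (log2, horizontal axis), and the black bar is the list median. The inflammation list reaches furthest to the right (3.63, median 0.39), immediate early genes (-2.97) and elovl7b of the enterocyte list (-3.03) reach furthest to the left, and the heart list has the lowest median (-1.76).

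Among markers of the dissected organs, the enterocyte list had the 2 calls given above. By the normal test 2.02% of all genes were called and 9.63% had an unadjusted p under 0.05. Lists this small would hold few calls at that share. The 18 exocrine pancreas genes (median -0.17), 28 hepatocyte genes (-0.36), 13 goblet and enteroendocrine genes (0.09), 11 islet genes (-0.12) and 20 genes of smooth muscle and mesenchyme (-0.19) had 0 calls by the normal test, and 2, 0, 0, 0 and 1 of them had an unadjusted p under 0.05. All 18 exocrine pancreas genes and 24 of the 28 hepatocyte genes nevertheless lay below 0, as did most abundant genes. The exocrine pancreas median lay near that of genes at a log2 CPM of 8 or more (-0.15). The hepatocyte median of -0.36 lay further below 0, and the reason was not tested. Their defining genes were present in the table, with averages in the authors' deposited table of 11672 CPM for the trypsin gene try, 1679 CPM for the liver apolipoprotein gene apoa2 and 44.5 CPM for the insulin gene ins.

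Some genes of tissue outside these organs were lower at 4 h. The heart list, put together after the values were seen, had 7 of 10 measured genes lower, against 1.4% of all genes. It had 0 higher, and its median was -1.76. The medians over unfed larvae of these 10 genes in the authors' deposited table were -0.49 at 4 h and 1.16 at 1 h. The authors' deposited table marked 5 of the 10 above unfed larvae at 1 h (2.72% of all genes). At 4 h 0 were marked below unfed larvae, which says little, as only 1 of all 12828 genes carried that mark (0.0078%). Of the heart genes, cmlc1, a cardiac myosin light chain gene, was 5.53-fold lower (-2.47 ± 0.369). The ventricular myosin gene vmhcl was 4.15-fold lower (-2.05 ± 0.361) and the light chain gene myl7 4.12-fold (-2.04 ± 0.365). Further lists put together after the values were seen went the same way. Fin fold and skin ionocyte genes had 7 of 13 lower (median -1.20) and cartilage and notochord genes 4 of 13 (median -1.10). Pigment cell genes had 2 of 3 lower (median -1.33). All had 0 higher, and 1.4% of all genes were lower. Of 41 skeletal muscle genes 3 were lower (7.32%, against 1.4% of all genes) and 0 higher, with a median of -0.21. The lower ones were the parvalbumin gene pvalb2 (-1.37 ± 0.358), the calcium channel gene ryr3 (-1.31 ± 0.367) and the troponin gene tnni2a.4 (-1.24 ± 0.364). Of 20 genes of skin, eye and nervous tissue 3 were lower (15%, against 1.4% of all genes) and 0 higher, with a median of -0.25. The lower ones were the keratin genes cyt1 (-1.62 ± 0.359), cyt1l (-1.31 ± 0.361) and si:dkeyp-113d7.4 (-1.40 ± 0.362). These 3 neighbour each other on chromosome 19 and may share reads. The abundant muscle genes eno3 (-0.11) and actc1b (-0.27) and the abundant keratin genes krt4 (-0.23) and krt8 (-0.25) were not called. The medians of both lists lay above that of the hepatocyte genes (-0.36). Blood genes had 0 calls of 9 by the normal test, with a median of -0.63. Of the 9, 3 had an unadjusted p under 0.05 by that test, against 9.63% of all genes.

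Together these 7 lists held 108 measured genes, of which 26 were lower, 0 higher and 95 below 0. They made up 14.4% of all lower calls, and 1.4% of all genes were lower. Most of the 26 came from the lists put together after the values were seen, so this share describes picked genes. Of the other lists, skeletal muscle gave 3, skin, eye and nervous tissue 3 and blood 0. Without the genes of all 7 lists, an alternative chosen after seeing the data, 78 genes were higher and 149 lower among 12720 tested. How much of the 3 pools of each group came from tissue beside the gut cannot be read from the table, and its part in the lower calls was not tested. Leaving the lists out is no such test, as most of their lower genes were picked after the values were seen. After the high-fat meal the differences of the Rhesus genes were -4.42 for rhcga, -2.65 for rh50, -1.34 for rhcgl1 and 0.52 for rhcgb, and the median of the ionocyte list, which holds rhcgb, was 0.40.

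After the high-fat meal, whose larvae share no sample with the low-fat cohort, 6.5% of the same 12828 genes passed the test of the 2 times, 419 higher (3.27%) and 415 lower (3.24%). Of the 79 genes higher after the low-fat meal, 52 were also called higher after the high-fat meal, which is 65.8% of one list and 12.4% of the other. Of the 180 lower ones, 87 were called lower after both meals, 48.3% of one list and 21.0% of the other. There were 7 genes called in opposite directions. Across genes the low-fat and high-fat differences had a Pearson correlation of 0.57 and a Spearman correlation of 0.62, given as a description since genes are not independent replicates. The gene noxo1b had 3.63 after the low-fat and 5.03 after the high-fat food, rhcga -4.30 and -4.42, mpx 2.48 and 3.22, fosb -2.97 and -2.90, slc6a19a -1.50 and -1.36, and npc1l1 -1.87 and -1.78. For none of these genes did the difference between the meals pass the test.

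The difference between the meals itself was tested for every gene as the low-fat minus the high-fat difference. Each meal was given to its own cohort, so meal and cohort cannot be told apart in this test. Of all genes 114 passed (0.889%), 39 with a higher low-fat value (0.304%) and 75 with a lower one (0.585%). Interferon-induced genes were 12 of those 75, with 1 of the 35 list members on the other side. The list's median was -0.31 after the low-fat and 0.64 after the high-fat meal. The gene rsad2 had -0.78 after the low-fat meal against 7.14 after the high-fat meal. Of the heat shock list 3 of 37 genes had a higher low-fat value and 0 a lower one, among them hsp70l (0.45 against -2.88) and hsp90aa1.2 (0.80 against -2.51), both of which have close paralogs that may share reads. Of the cholesterol synthesis list, 7 of 29 had a higher low-fat value and 0 a lower one. These 7 were lower at 4 h than at 1 h with the high-fat food and uncalled with the low-fat food, as in sqlea, squalene epoxidase (-0.27 against -3.57). Of the heart list 4 of 10 and of the fin fold and ionocyte list 5 of 13 had a lower low-fat value and 0 a higher one, and the high-fat medians of these lists were 0.14 and 0.40. The median of the heart list was -1.76 after the low-fat meal. Both lists were put together after the low-fat values were seen. These counts and medians therefore describe picked genes and are no test of the meals.

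Among immediate early genes and clock genes 0 members passed the test of the meals, and likewise among amino acid transporters and enterocyte markers. No difference between meals was detected there, which does not show that the meals were alike. The smallest difference that passed was -1.815, in irf7. Below that size, fos had -2.37 after the low-fat against -0.87 after the high-fat meal, and nfil3-5 1.60 against 0.50. Both were called after the low-fat meal and not after the high-fat meal. Of the inflammation list 1 gene passed, il1b, which had 1.95 after the low-fat meal against -0.28 after the high-fat meal. Desaturase (scd) had 2.33 against 0.08, and its low-fat minus high-fat difference was 2.25. The cell cycle inhibitor cdkn1a was lower after both meals, with -1.88 after the low-fat against -4.35 after the high-fat meal, and ypel3 was higher after both, 2.39 against 4.41.

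**Figure D4:**
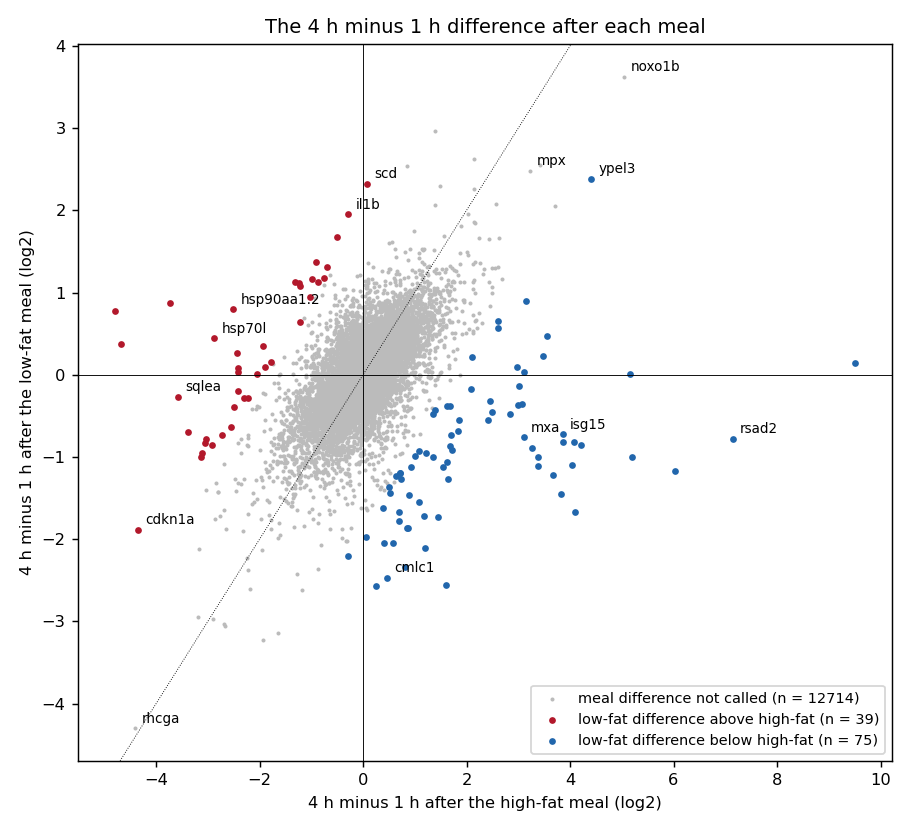
Each point is 1 of 12828 genes, placed by its 4 h minus 1 h difference after the high-fat meal (log2, horizontal axis) and after the low-fat meal (log2, vertical axis); the dotted line marks equal differences. Genes whose meal difference passed the test are red (39, low-fat value higher) or blue (75, low-fat value lower), and noxo1b, mpx and rhcga lie near the line at both ends while rsad2, at 7.14 and -0.78, lies far from it.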

How the data were processed

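Poly(A) RNA libraries of 18 samples in 6 groups of 3 were sequenced as reads of 50 bases, 6 samples per lane, per the labels. The authors used TopHat2, edgeR and build Zv9, per the submitters' processing notes, with versions, counting tool and annotation not given in the sources used here. Their deposited table holds the authors' log2 fold changes over unfed larvae and 1 average log2 CPM for 56754 transcripts, with p-values and adjusted p-values by the authors, per the file headers. It has 0 columns of single samples, so the depth of each library is unknown and the design planned for counts was replaced by an approximate test on these values. A standard error was the size of a log2 fold change divided by the normal score of its p-value, smoothed over log2 CPM. For 4 h minus 1 h both squared errors were averaged and the root taken. The difference between meals added the squared errors of both meals. Two-sided normal p-values were adjusted by Benjamini-Hochberg over 12828 genes. These p-values rest on a spread shared by all genes, not on each gene's own spread between the 3 pools.

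Named genes were the 14 called genes with the most positive and the 14 with the most negative differences (average log2 CPM of at least 1, a single symbol and no clone-style name), and in each list up to 4 called and 2 abundant uncalled members. Most genes outside that rule are stated in the text as named after their values were seen, or belong to lists put together then. The genes klf11a, klf11b, lyz, arntl1a, arntl1b, hsp70l, hsp90aa1.2 and sqlea were also named after their values were seen, without a statement beside them. The comparison, 32 gene lists and rules were chosen with earlier results of these data known. The scripts were checked on simulated tables. Python 3.11.15, numpy 2.4.6, scipy 1.17.1 and pandas 2.3.3 were used. Alternatives covered the error, the scaling, the filter, the choice of transcript, joined symbols and genes of other tissue. RNA from overlapping genes or close paralogs may be shared among transcripts: in 145 of the 12828 genes the symbol joins several genes.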

Additional observations from a re-analysis of the deposited data

Results flagged for a closer look

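For 10 of 109 named genes the 4 h minus 1 h difference after the low-fat meal differed from that after the high-fat meal. The normal test of that difference, with Benjamini-Hochberg adjustment over 12828 genes, was passed by 114 of all genes (0.889%). All 10 were named for the size of their low-fat difference, which enters the tested value, so their count describes picked genes. The low-fat minus high-fat difference was 2.46 for cdkn1a, which was lower at 4 h after both meals, 2.25 for the desaturase gene scd and 2.24 for il1b, which were higher at 4 h after the low-fat meal. It was -2.02 for ypel3, which was higher at 4 h after both meals. For the heart genes cmlc1, myl7 and vmhcl it was -2.94, -2.61 and -2.46, for the elastin gene elnb -2.81, for the keratin gene cyt1 -2.01 and for the troponin gene tnni2a.4 -1.88. The heart, keratin and troponin genes mark tissue other than the labelled organs. Their part in the pools was not tested. Each meal had its own cohort, so meal and cohort cannot be told apart for any of the 10 genes.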

How the results depend on the processing

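With both squared errors added, 13 genes were higher and 26 lower at 4 h after the low-fat meal, against 79 and 180, and 6 and 35 genes had a higher or lower low-fat value in the difference between meals, against 39 and 75; the larger error is part of that setting. With no minimum on log2 CPM, 136 were higher and 291 lower among 21227 genes, with 70 and 117 in the difference between meals. With a minimum of 2, 47 were higher and 111 lower among 8643 genes, with 22 and 42, where fewer genes were tested. The other settings (each gene's own ratio as error, centring on the median, the mean over transcripts, joined symbols left out and genes of other tissue left out) gave 78 to 79 genes higher and 149 to 183 lower. The own ratio was used only in genes whose fold changes over unfed larvae exceeded 0.5 in size at both times. Other genes, noxo1b among them, kept the shared error. Of 47 called named genes, 25 lost the call under added errors, and bcat1 lost it under the mean over transcripts and without genes of other tissue. Only centring and the mean over transcripts altered the differences themselves, so the direction of a gene could not change in the other settings. None changed direction in these 2. No paired analysis was possible because the deposited table has 0 columns of single samples, and leaving out each replicate was not run for the same reason. Depth is unknown. A spread shared by all genes understates the error of genes that vary between pools, and no difference under 1.18 was called.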

Other observations

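Some genes around vitamin D, phosphate and bile acids, picked after their values were seen and given with no test beyond the one across all genes, also differed between the later and the earlier time. The enzyme gene cyp24a1, which breaks down active vitamin D, was higher at 4 h (1.32 ± 0.357, standard error), while cyp2r1, which makes 25-hydroxyvitamin D, was lower (-3.05 ± 0.365). In the authors' deposited table cyp24a1 stood at -0.53 at 4 h and -1.85 at 1 h over unfed larvae. The phosphate carrier genes slc34a2a (-2.12) and slc20a1a (-1.25) were lower. The bile acid response gene nr0b2a (small heterodimer partner) was 2.46-fold higher, with -0.35 at 4 h and -1.65 at 1 h over unfed larvae in the authors' deposited table. The bile salt export pump gene abcb11b was lower (-1.36 ± 0.358), and the sterol exporter gene abcg1 was higher (1.32 ± 0.373).

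Water and gap junction channel genes, picked in the same way, split as well. The aquaglyceroporin gene aqp7 was higher at 4 h (1.65 ± 0.359) and aqp10a lower (-1.18 ± 0.359), among 10 measured aquaporin genes. That is 20% called, against 2.02% of all genes. The connexin genes cx32.3 (-1.95 ± 0.358) and cx28.9 (-1.53 ± 0.358) were lower, among 9 measured connexins, of which 0 were higher. That is 22.2% called lower, against 1.4% of all genes. In the authors' deposited table cx32.3 stood at 0.77 at 4 h and 2.72 at 1 h over unfed larvae. Further single genes picked in the same way were higher at 4 h: heme oxygenase hmox1a had a difference of 1.49 ± 0.362 and peroxiredoxin prdx1 was 2.30-fold higher. The transcription factor gene tfe3a (1.53 ± 0.368) and the autophagy protease gene atg4b (1.23 ± 0.366) were higher too, and the kinase gene pdpk1a had 1.66 ± 0.359.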
